A study of Mus musculus with 16 samples.

Results

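The transcripts described here encode hepcidin and the proteins with which the liver senses, carries, stores and exports iron. They are 10 genes chosen by symbol: Hamp, Hamp2, Bmp6, Tfr2, Tfrc, Trf, Fth1, Ftl1, Slc40a1 and Cp. All 10 were found among the 40840 gene symbols of the count table, and all 10 passed the filter on low counts, among 14484 genes tested. Poly(A) RNA was sequenced from livers of male mice on the C57BL/6J background, 12 to 16 weeks old, which had been given oxaliplatin, a platinum drug that crosslinks DNA. The drug was injected into the peritoneum at 12 mg/kg on 3 consecutive days, at circadian time 8 or 16 (CT8, CT16), under constant darkness that began 3 days before the first injection. The series text also speaks of a single dose. Mice were wild type (WT) or Cry1-/- Cry2-/-, a double knockout of the cryptochromes, which repress transcription in the circadian clock (CryDKO). Each of the 4 groups had 4 libraries. All 4 groups received the drug, without an untreated group in these data, and the sources used here do not say when livers were taken.

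Hepcidin is a peptide hormone that hepatocytes release into blood, where it binds ferroportin, the only known cellular iron exporter, and causes its breakdown, so that less iron enters plasma. Its transcription rises with iron through BMP6, a ligand made mainly by sinusoidal endothelial cells, and SMAD proteins, and rises in inflammation through IL-6 and STAT3. Inside cells, iron regulatory proteins bind hairpins in mRNA when iron is low, which blocks translation of ferritin and ferroportin and shields the transferrin receptor mRNA from decay.

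The mouse has a pair of neighbouring hepcidin genes, Hamp and Hamp2, on the minus strand of chromosome 7. The product of Hamp is the iron regulator, while that of Hamp2 does not replace it. The 250 bases before each start are shown because the results below differ most between these copies. They come from the RefSeq promoter table of GRCm38.p6, from chr7:30944030-30944279 for Hamp and chr7:30924182-30924431 for Hamp2, both read 5′ to 3′ along the minus strand. Capitals mark matches to GGCGCC, a GC box of the kind through which BMP and SMAD signals act on hepcidin, and to TTCNNNGAA, a STAT site, each searched on both strands.
Hamp: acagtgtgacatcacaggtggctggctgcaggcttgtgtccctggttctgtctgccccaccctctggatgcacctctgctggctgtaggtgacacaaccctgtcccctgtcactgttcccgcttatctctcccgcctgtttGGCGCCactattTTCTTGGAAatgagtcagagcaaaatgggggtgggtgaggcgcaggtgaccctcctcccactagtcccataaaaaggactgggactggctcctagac
Hamp2: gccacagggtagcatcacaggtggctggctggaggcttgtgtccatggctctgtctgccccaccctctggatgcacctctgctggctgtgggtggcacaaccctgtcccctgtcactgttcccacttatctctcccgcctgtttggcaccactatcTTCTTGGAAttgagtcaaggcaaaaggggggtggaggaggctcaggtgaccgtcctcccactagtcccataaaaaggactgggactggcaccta
In Hamp the GC box began at -109 and the STAT match at -97 from the start. In Hamp2 the STAT match began at -94, and the bases aligned with the GC box of Hamp read GGCACC, with the substitution G4A (the base of Hamp first, positions counted from 1 at the 5′ end of the box). Over windows that also held the 50 bases after the start, the copies were identical at 276 of 303 aligned positions (91.1%). Among 32851 promoter windows of that length, GGCGCC was present in 11.9% and TTCNNNGAA in 8.3%. The E-box CACGTG, the motif bound by CLOCK and BMAL1, was in 7.15% of windows and in neither hepcidin promoter. Of the other members with an entry, Bmp6 held CACGTG at -127 (window chr13:38345466-38345765, plus strand) and Tfrc held GGCGCC at -89 (window chr16:32608646-32608945, plus strand). These matches describe letters and were not tested as binding sites.

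Iron responsive hairpins are shown because they tell apart the 4 members whose mRNA the iron regulatory proteins are known to bind. UTRs of GENCODE M21 (GRCm38) were searched on the sense strand for a C, 5 bases, the loop CAGTGN and 5 bases that pair with those before it, G with T pairs allowed. Each site is printed as 29 bases of DNA with the loop in capitals. The sites lie in the 5′ UTR of Fth1 at chr19:9982732-9982760 (plus strand), of Ftl1 at chr7:45459779-45459807 (minus strand) and of Slc40a1 at chr1:45925465-45925493 (minus strand), and in the 3′ UTR of Tfrc on the plus strand at chr16:32631219-32631247, chr16:32631598-32631626, chr16:32631663-32631691 and chr16:32631710-32631738, in that order.
Fth1: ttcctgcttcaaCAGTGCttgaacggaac
Ftl1: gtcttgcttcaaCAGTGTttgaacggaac
Slc40a1: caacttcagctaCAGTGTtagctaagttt
Tfrc site 1: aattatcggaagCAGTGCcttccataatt
Tfrc site 2: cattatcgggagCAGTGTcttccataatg
Tfrc site 3: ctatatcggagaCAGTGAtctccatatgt
Tfrc site 4: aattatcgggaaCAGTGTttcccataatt
A match was found in the 5′ UTR of 28 of 20504 genes (0.137%) and in the 3′ UTR of 127 of 20850 (0.609%). The search left 6 members without a match. Because regulation through these hairpins acts partly on translation, RNA counts cover only its part on mRNA levels.

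Libraries held 18083916 to 29934138 counted reads. The 10 most abundant genes took 12.9% to 14.6% of reads in WT at CT8, 14.3% to 17.8% in WT at CT16 and 19.4% to 23.04% in the libraries labelled CryDKO. WT_CT16 library 8 stood apart from its group: its composition factor (trimmed mean of M values, TMM) was 1.20, against 0.921 to 0.955 in the other 3 and 1.13 to 1.24 in WT at CT8. Read counts scaled to the total of each library times its TMM factor (CPM) of Cry2 ranged from 39.9 to 58.9 in WT and from 23.1 to 33.3 under the CryDKO label. Those of Cry1 ranged from 5.14 to 15.9 in WT and from 20.5 to 29.04 under the CryDKO label, which goes against a plain loss of this transcript. CryDKO stands below for the label, in every direction given. Hepatocyte markers summed to 51055 to 64394 CPM in WT at CT8, 55996 to 94611 in WT at CT16, 95869 to 133380 in CryDKO at CT8 and 95119 to 153878 in CryDKO at CT16, which fits the labelled tissue.

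**Figure D1:**
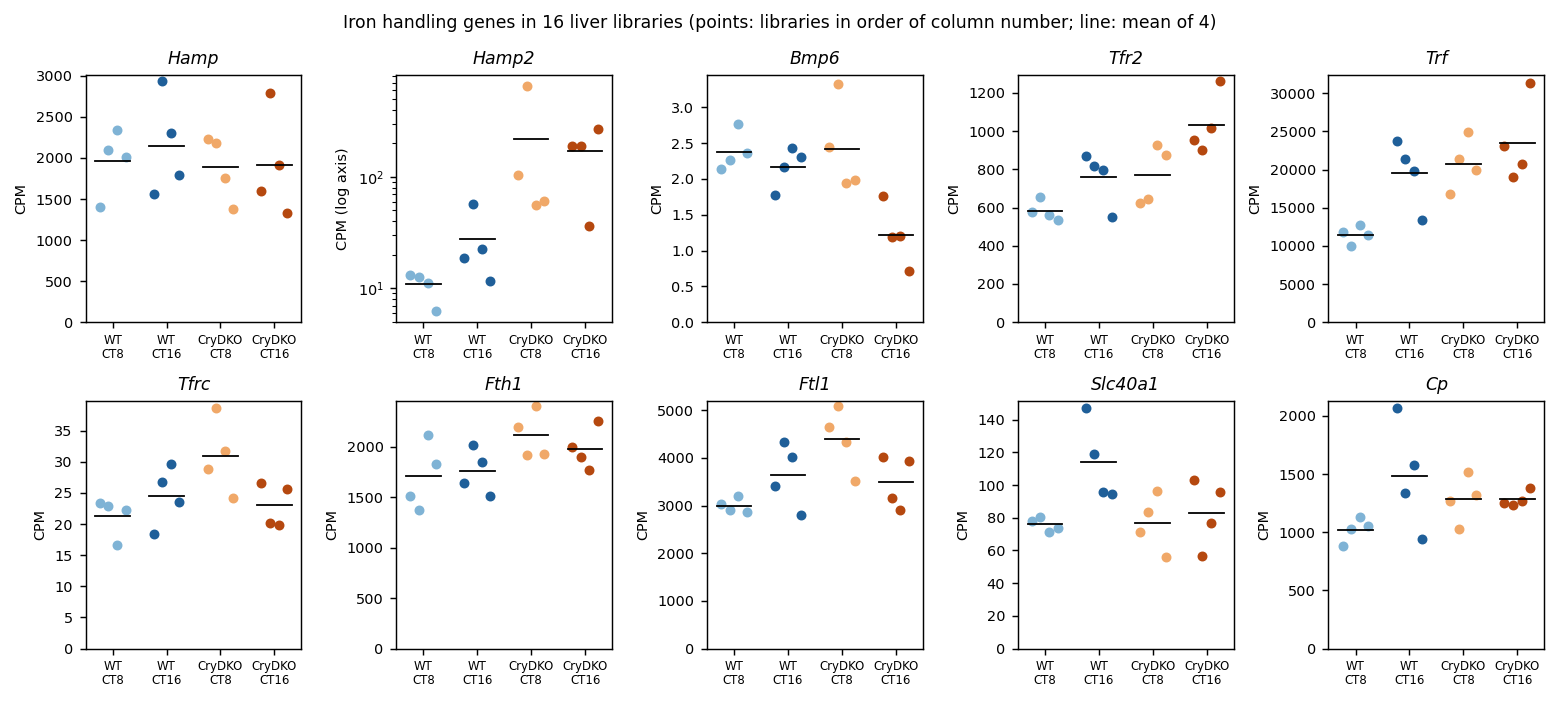
CPM of the 10 iron handling genes in 16 liver libraries, 4 per group, with the group mean as a line; the axis is linear from 0 except for Hamp2, which is on a log axis. Hamp2 ran from 6.27 to 654.6 CPM while Hamp stayed between 1331 and 2935 CPM.

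The main hepcidin transcript, Hamp, was abundant and close to equal in the 4 groups, while its copy Hamp2 was higher in CryDKO than in WT at CT8. Per kilobase of transcript, Hamp stood at 4784 ± 972 CPM in WT at CT8 (SD, n = 4), beside 4462 ± 449 for Trf, and Hamp2 at 25.8 ± 7.56. Hamp CPM were 1401, 2091, 2340 and 2013 in WT at CT8 and 1558, 2935, 2305 and 1795 in WT at CT16. They were 2226, 2180, 1760 and 1373 in CryDKO at CT8 and 1603, 2791, 1919 and 1331 in CryDKO at CT16. Every group thus spanned low and high libraries, and all 4 groups overlapped. Means were 1962 ± 399, 2148 ± 610, 1885 ± 400 and 1911 ± 634 CPM in that order. In edgeR's quasi-likelihood test the difference of CryDKO from WT in Hamp was -0.06 ± 0.25 (log2 ± SE, adjusted p = 0.871) at CT8 and -0.17 ± 0.25 (adjusted p = 0.673) at CT16.

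Hamp2 CPM were 13.3, 12.6, 11.1 and 6.27 in WT at CT8 and 104, 654.6, 56.4 and 61.0 in CryDKO at CT8. The lowest CryDKO library was thus above the highest WT library, and CryDKO library 10 stood far above the other 3. At CT8 18.7% of all genes were higher in CryDKO without overlap. The log2 difference was 4.34 ± 0.95 (edgeR adjusted p = 0.00377), a ratio of 20.2. It was 2.78 ± 0.65 without library 10, and the call held in all 23 alternative settings, with adjusted p from 9.68e-07 to 0.0151. At CT16, Hamp2 stood at 18.8, 57.1, 22.6 and 11.6 CPM in WT and at 190, 190, 36.5 and 269 CPM in CryDKO. Here 1 CryDKO library lay below the highest WT library, and the difference of 2.64 ± 0.88 missed the threshold (edgeR adjusted p = 0.0547). That difference passed in 7 of 23 settings, among them those without CryDKO_CT8 library 10 or without WT_CT16 library 6, with adjusted p from 0.00767 to 0.133 over all 23.

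The sum of both hepcidin genes gave no difference between groups beyond their spread. Summed CPM were 1972 ± 398 and 2176 ± 628 in WT at CT8 and CT16, and 2103 ± 610 and 2082 ± 616 in CryDKO (SD, n = 4). A two-sided exact permutation test over libraries gave p = 0.800 for the genotypes at CT8 and 0.857 at CT16, and 0.743 and 0.971 for the times in WT and CryDKO, all 0.971 after Benjamini-Hochberg adjustment over the 4. The smallest p this design allows is 0.0286. Hamp2 made up 0.940%, 0.600%, 0.473% and 0.310% of the reads of both genes in WT at CT8 and 1.19%, 1.91%, 0.971% and 0.645% in WT at CT16. In CryDKO its share was 4.46%, 23.1%, 3.10% and 4.25% at CT8 and 10.6%, 6.36%, 1.87% and 16.8% at CT16. At CT8 the genotypes did not overlap, with an exact Clopper-Pearson 95% interval of 2.92% to 3.30% for the lowest CryDKO library and 0.846% to 1.04% for the highest WT library, which cover counting error only. The transcripts are 92.4% identical, with a longest shared stretch of 87 bases. None of the windows of 150 bases of Hamp (0%), the length of 1 read, recurs in Hamp2, against 16.6% of windows of 50 bases, so assignment of shorter trimmed reads is less certain.

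**Figure D2:**
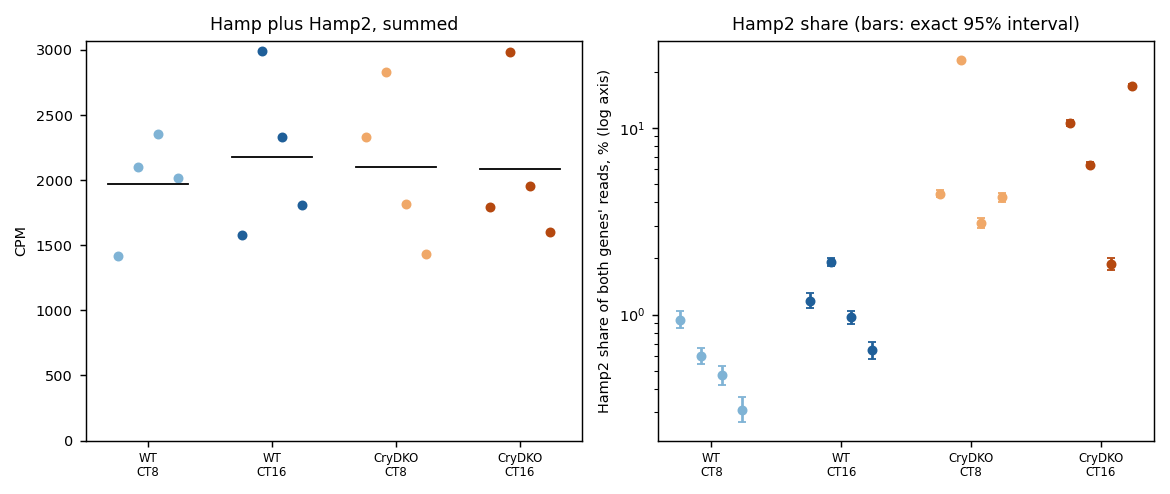
Left, summed CPM of Hamp and Hamp2 in each library with group means; right, the share of Hamp2 in the reads of both genes, in percent on a log axis, with exact 95% intervals. The sums overlap across the 4 groups, and the shares lie at 1.91% or below in WT and at 1.87% or above in CryDKO.

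Bmp6, a ligand that drives hepcidin transcription, was the scarcest member per kilobase, at 0.663 ± 0.0767 CPM in WT at CT8. It had 14 to 74 reads per library and was lower in CryDKO than in WT at CT16. Its CPM were 1.77, 2.16, 2.43 and 2.30 in WT at CT16 and 1.76, 1.19, 1.20 and 0.717 in CryDKO at CT16. The groups met but did not overlap (10.2% of all genes were lower without overlap), since the highest CryDKO library was just under the lowest WT library. The log2 difference was -0.83 ± 0.28 (edgeR adjusted p = 0.0470). At CT8 the values were 2.13, 2.26, 2.77 and 2.36 in WT and 2.44, 3.32, 1.94 and 1.98 in CryDKO, which overlap, with a difference of 0.03 ± 0.27 (edgeR adjusted p = 0.943). The call at CT16 is fragile: it was lost in 14 of 23 settings, and on leaving out single libraries it held only without WT_CT16 library 5, CryDKO_CT8 library 9 or 10, or CryDKO_CT16 library 11, with adjusted p from 0.0185 to 0.126. Markers of sinusoidal endothelium, where the liver makes BMP6, summed to 88.7 to 123 CPM in WT at CT8, 44.4 to 122 in WT at CT16, 75.8 to 125 in CryDKO at CT8 and 77.2 to 105 in CryDKO at CT16. All 9 of these markers were detected in every group. At CT16 1 of 9 was higher and 0 lower in CryDKO, beside 9% and 9.15% of all genes. The part of these cells in the Bmp6 difference was not tested. In bulk tissue, fewer cells of a type and less RNA per cell cannot be told apart.

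Tfr2, a hepatocyte sensor of iron-loaded transferrin that acts upstream of hepcidin, passed no test in the main fit. Its CPM were 577, 652.7, 560.5 and 533 in WT at CT8, 872, 818, 796 and 552 in WT at CT16, 623, 647, 927 and 877 in CryDKO at CT8, and 955, 901, 1014 and 1259 in CryDKO at CT16. At CT16 all 4 CryDKO libraries were above all WT libraries, as for 9.65% of all genes, and at CT8 the genotypes overlapped. The difference of CryDKO from WT was 0.44 ± 0.18 at CT16 (edgeR adjusted p = 0.0994) and 0.40 ± 0.18 at CT8 (adjusted p = 0.0888). Over the alternative settings, that at CT8 passed in 3 of 24, with adjusted p from 0.0443 to 0.811. That at CT16 passed in 0 of 24, with adjusted p from 0.0528 to 0.267.

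Tfrc, the receptor that takes up transferrin and the member with hairpins in its 3′ UTR, was higher in CryDKO at CT8. Its CPM there were 23.4, 22.9, 16.7 and 22.2 in WT and 28.9, 38.7, 31.7 and 24.2 in CryDKO. The groups did not overlap, as for 18.7% of all genes, higher in CryDKO, though the gap between them was small. The log2 difference was 0.53 ± 0.17 (edgeR adjusted p = 0.0174). The call was lost without CryDKO_CT8 library 10 (34% of all genes called), without WT_CT8 library 3 and with scaling by library size alone (42%), where the difference was 0.18, with adjusted p from 0.00736 to 0.440 over 24 settings. At CT16 Tfrc stood at 24.6 ± 4.82 CPM in WT and 23.03 ± 3.52 in CryDKO (SD, n = 4), with overlapping values and a difference of -0.09 ± 0.17. Erythroid precursors are rich in this receptor. Of the erythroid markers listed, 2 passed the filter, Slc4a1 and Epb42 had no read in any library. Alas2, the erythroid enzyme of heme synthesis, was lower in CryDKO at CT8, at -1.02 ± 0.38 (edgeR adjusted p = 0.0457). The beta globin Hbb-bs had 0 to 4 reads per library in WT and 6 to 14 in CryDKO at CT8, and 0 to 1 and 1 to 15 at CT16. It passed the filter only through the CryDKO libraries, so no test of it is given. The summed level of the list, nearly all of it Alas2, was 39.8 to 48.1 CPM in WT at CT8, 28.3 to 50.6 in WT at CT16, 12.7 to 31.3 in CryDKO at CT8 and 12.03 to 43.4 in CryDKO at CT16. The part of erythroid cells in the Tfrc difference was not tested.

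Trf, transferrin, the plasma carrier of iron secreted by hepatocytes, was higher in CryDKO at CT8. Its CPM were 11823, 9953, 12719 and 11395 in WT at CT8 and 16834, 21437, 24975 and 19938 in CryDKO at CT8. The lowest CryDKO library was well above the highest WT library, and 18.7% of all genes were likewise higher without overlap. The log2 difference was 0.86 ± 0.22 (edgeR adjusted p = 0.00545), and the call held in all 24 settings, at 0.51 with scaling by library size alone. At CT16 the values were 23741, 21392, 19845 and 13359 in WT and 23083, 19013, 20688 and 31383 in CryDKO, which overlap. There the difference was 0.27 ± 0.22 (edgeR adjusted p = 0.425). Across the 16 libraries, log2 CPM of Trf had a Pearson r of -0.96 with the log2 TMM factor, as a description of libraries that share their scaling. The summed hepatocyte markers given above, of which Alb alone held 33147 to 115461 CPM, were likewise higher in CryDKO at CT8. Of the 7 markers, 4 were called higher and 0 lower, beside 18.7% and 20.3% of all genes. Their log2 differences ran from -0.47 to 1.21. The part of the TMM factor or of these markers in the Trf difference was not tested.

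Of the ferritin subunits, which together form the cage that stores iron, the light chain Ftl1 was higher in CryDKO at CT8 and the heavy chain Fth1 did not pass. Ftl1 CPM were 3026, 2904, 3195 and 2866 in WT at CT8 and 4652, 5084, 4323 and 3506 in CryDKO at CT8. These did not overlap, as for 18.7% of all genes, higher in CryDKO. The log2 difference was 0.55 ± 0.19 (edgeR adjusted p = 0.0260). It was 0.21 with scaling by library size alone, where the call was lost, and the call was also lost without CryDKO_CT8 library 9 or 10 or WT_CT8 library 2 or 4, with adjusted p from 0.00275 to 0.279 over 24 settings. Fth1 CPM were 1511, 1378, 2116 and 1832 in WT at CT8 and 2201, 1921, 2406 and 1927 in CryDKO at CT8, which overlap, with a difference of 0.31 ± 0.18 (edgeR adjusted p = 0.176). At CT16, Ftl1 differed by -0.06 and Fth1 by 0.17 between genotypes, and neither passed. Ferritin genes have many pseudogene copies. The one with reads among those searched by symbol, Ftl1-ps2, held 44 to 86 reads per library, so the count for Ftl1 could include reads that copies share.

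The exporter Slc40a1 (ferroportin) and its partner Cp (ceruloplasmin, the plasma oxidase that prepares iron for transferrin) passed no test between genotypes. Slc40a1 CPM were 78.3, 80.7, 71.3 and 73.8 in WT at CT8, 147, 119, 95.7 and 94.7 in WT at CT16, 71.2, 83.6, 96.6 and 56.0 in CryDKO at CT8, and 103, 56.7, 76.9 and 95.6 in CryDKO at CT16. The WT libraries at CT16 were thus above those at CT8, as for 5.52% of all genes, while the CryDKO libraries overlapped. The genotypes differed by 0.01 ± 0.19 at CT8 (edgeR adjusted p = 0.958) and by -0.46 ± 0.19 at CT16 (adjusted p = 0.0998). Scaling by library size alone brought the latter to -0.59 and past the threshold, with adjusted p from 0.0278 to 0.287 over 24 settings. Kupffer cells also make ferroportin. Their 10 markers, all detected in each group, summed to 61.8 to 91.9 CPM in WT at CT8, 30.9 to 113 in WT at CT16, 77.03 to 190 in CryDKO at CT8 and 122 to 209 in CryDKO at CT16. At CT16, 5 of 10 were higher and 0 lower in CryDKO, beside 9% and 9.15% of all genes. The part of these cells in the Slc40a1 values was not tested. Cp stood at 1023 ± 106 and 1483 ± 472 CPM in WT at CT8 and CT16, and at 1282 ± 202 and 1284 ± 65.5 CPM in CryDKO (SD, n = 4). The groups overlapped at CT8 and at CT16, and its genotype differences were 0.33 ± 0.20 (edgeR adjusted p = 0.208) and -0.21.

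**Figure D3:**
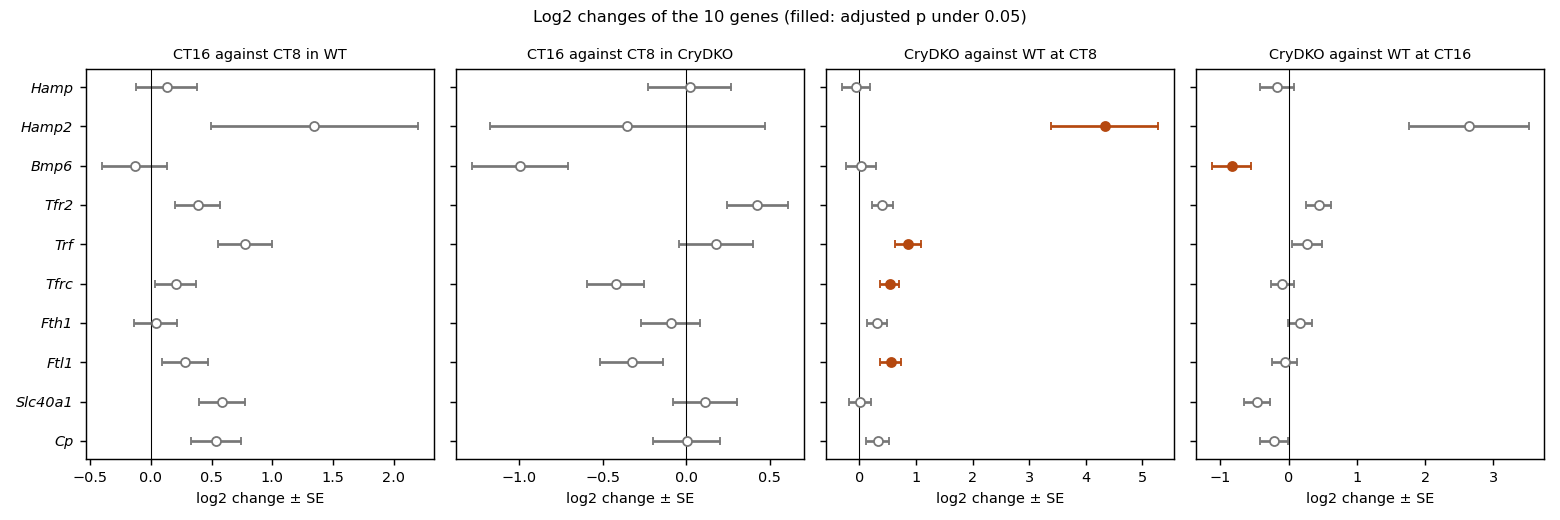
Log2 changes of the 10 genes with approximate SE in the comparisons of times and of genotypes, without the interaction. Filled points passed adjusted p under 0.05, open points did not. Filled points are Hamp2, Trf, Ftl1 and Tfrc for CryDKO against WT at CT8, at 4.34, 0.86, 0.55 and 0.53, and Bmp6 at CT16, at -0.83.

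Counted together, 4 of 10 members were higher and 0 lower in CryDKO than in WT at CT8, in a comparison where 39% of all genes tested passed in edgeR, 18.7% higher and 20.3% lower. At CT16, 0 were higher and 1 was lower, where 18.2% of all genes passed. The median log2 difference of the members was 0.36 at CT8 and -0.08 at CT16, beside -0.02 and -0.01 for all genes. With scaling by library size alone, and likewise without CryDKO_CT8 library 10, 2 members remained higher at CT8, Hamp2 and Trf. With so large a background, the count of members at CT8 says little about the members as a group.

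Between dosing times, no member passed in either genotype. In WT, edgeR called 0 of 10 members, where 2.53% of all genes passed. At an unadjusted p under 0.05 there were 4 members, where 26.4% of all genes were. DESeq2 called 3 members, with 10.5% of all genes, and limma voom 1, with 6.95%. All 4 WT libraries at CT16 lay above all 4 at CT8 for Trf, with 0.77 ± 0.22 (edgeR adjusted p = 0.0581), and for Slc40a1, with 0.59 ± 0.19 (adjusted p = 0.0739), and 5.52% of all genes had such non-overlapping higher values. Cp differed by 0.54 ± 0.20 and Tfr2 by 0.39 ± 0.18, with overlap. WT_CT16 library 8 was the lowest of its group for Trf, Slc40a1, Cp and Tfr2, and without it all 4 passed, at 0.95, 0.70, 0.74 and 0.55, in a fit where 24.4% of all genes passed instead of 2.53%. Their SE were 0.21, 0.20, 0.18 and 0.18. In CryDKO, edgeR called 0 of 10 members and 0% of all genes. At an unadjusted p under 0.05 there were 3 members, where 6.48% of all genes were, and DESeq2, with 0.0967% of all genes, and limma voom, with 0%, called 0 members. The lowest unadjusted p of the 3, 0.00231, belonged to Bmp6, at -0.997 ± 0.29 (edgeR adjusted p = 0.656), with all 4 libraries at CT16 below those at CT8, as for 1.28% of all genes. The other values were -0.42 ± 0.17 for Tfrc and 0.43 ± 0.18 for Tfr2. These time comparisons and the genotype comparisons share libraries, so their values are not independent of each other.

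Whether the effect of dosing time differed between genotypes was tested by the interaction. EdgeR called 0 of 10 members, where 0.0414% of all genes passed, and DESeq2, with 0.925% of all genes, and limma voom, with 0.0069%, also called 0. At an unadjusted p under 0.05 there were 3 members, where 13.3% of all genes were: Tfrc at -0.63 ± 0.24, Ftl1 at -0.61 ± 0.27 and Bmp6 at -0.86 ± 0.39, with edgeR adjusted p of 0.285, 0.337 and 0.352. So the genotype differences of Tfrc, Trf, Ftl1 and Hamp2, which passed at CT8 and not at CT16, were not shown to differ between the times. For Hamp2 the interaction was -1.70 ± 1.18 (edgeR adjusted p = 0.553), and for Trf -0.59 ± 0.31 (adjusted p = 0.413).

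The wider iron pathway was described with 5 lists holding 51 genes, 47 of them tested. Erfe and Il6, the erythroid and inflammatory signals to hepcidin, had at most 2 and 5 reads in any library. In CryDKO against WT at CT8, 20 of 47 were higher and 2 lower, with a median log2 difference of 0.37. At CT16, 4 were higher and 4 lower, with a median of 0.21. With TMM scaling, 18.7% of all genes were higher and 20.3% lower at CT8, and 9% higher and 9.15% lower at CT16. The number of higher calls at CT8 depends on the scaling. With library size alone, 7 of 47 were higher and 9 lower, beside 961 higher and 5127 lower of all 14484 genes. That scaling moved the median of all genes at CT8 from -0.02 to -0.36, and that of the 47 to 0.03. The median of the 47 at CT8 thus lay above that of all genes under both scalings. At CT16 library size alone gave 1 higher and 4 lower, beside 605 and 1883 of all genes.

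In the list for BMP and SMAD control of hepcidin, 17 genes were tested. At CT8, near the 18.7% of all genes higher in CryDKO, 3 of the 17 were higher and 0 lower. They were Tmprss6, the protease that cuts hemojuvelin and so restrains hepcidin, at 0.77 ± 0.19 (279 ± 44.2 CPM in WT and 477 ± 92.1 in CryDKO, edgeR adjusted p = 0.00420), Neo1 at 0.52 and Hfe at 0.36. The call of Tmprss6 held in all 24 settings, that of Neo1 was lost with scaling by library size alone, and that of Hfe in 8, among them without WT_CT8 library 1, 2 or 4 or CryDKO_CT8 library 9 or 15. Id1 and Smad7, which are among the targets of the pathway, differed by 0.61 ± 0.39 and 0.02 ± 0.24 at CT8 and by 0.27 and -0.12 at CT16, and did not pass. Smad6, of the same list, differed by 0.44 ± 0.17 at CT8 and 0.50 ± 0.17 at CT16 (edgeR adjusted p = 0.0506 and 0.0504). Atoh8 differed by 0.50 ± 0.20 at CT8 (edgeR adjusted p = 0.0508). These differences of Smad6 and Atoh8 just missed the threshold. At CT8 both genes were higher without overlap, as were 18.7% of all genes. The ligand gene Bmp2, of the same list, differed by -0.75 ± 0.37 at CT8 (edgeR adjusted p = 0.122) and -0.49 ± 0.38 at CT16 (edgeR adjusted p = 0.391). Its CryDKO values at CT8 were all lower than those of WT, as for 20.5% of all genes. At CT16, 1 of the 17 was higher and 2 lower, beside 9% and 9.15% of all genes. The higher one was Atoh8, a transcription factor induced with hepcidin, at 0.71 ± 0.20 (edgeR adjusted p = 0.0177). The lower ones were the BMP receptors Acvr2a at -0.47 ± 0.14 and Bmpr2 at -0.41 ± 0.13, with edgeR adjusted p of 0.0262 and 0.0373. Bmpr2 values at CT16 did not overlap, with 22.2 to 34.2 CPM in WT against 16.9 to 21.5 in CryDKO. Of all genes, 10.2% were lower without overlap at CT16. Without WT_CT16 library 5, CryDKO_CT16 library 12 or CryDKO_CT16 library 13 both receptor calls were lost, that of Bmpr2 also without CryDKO_CT16 library 14, and that of Atoh8 without WT_CT16 library 8 or CryDKO_CT16 library 11.

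In the list for IL-6 and STAT3 control, 3 of 6 were higher and 0 lower at CT8, beside 18.7% and 20.3% of all genes. The 3 were Jak1 at 0.49, Il6ra at 0.59 and Stat3 at 0.57. All 3 calls were lost with scaling by library size alone, those of Il6ra and Stat3 without CryDKO_CT8 library 15, and that of Stat3 also without CryDKO_CT8 library 16 or WT_CT8 library 3 or 4. None of the 6 passed at CT16 in edgeR, and 1 had an unadjusted p under 0.05, where 32.8% of all genes had. Socs3, an immediate target of STAT3, ranged from 29.04 to 205 CPM within CryDKO at CT16 alone.

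In the list for the iron regulatory proteins and ferritin turnover, 4 of 6 were higher and 1 lower at CT8, beside 18.7% and 20.3% of all genes. The one that fell was Ireb2, which encodes iron regulatory protein 2, a regulator that binds hairpins such as those shown above. Its CPM were 81.0, 89.6, 83.3 and 74.3 in WT at CT8 and 50.4, 40.97, 57.7 and 50.8 in CryDKO at CT8. They were 122, 101, 85.1 and 90.6 in WT at CT16 and 64.8, 56.6, 59.6 and 71.6 in CryDKO at CT16. The genotypes did not overlap at either time, as for 20.5% of all genes, lower in CryDKO, at CT8 and 10.2% at CT16. The differences were -0.72 ± 0.14 at CT8 and -0.66 ± 0.14 at CT16, with edgeR adjusted p of 0.000753 and 0.00358, and no setting lost either call. Aco1, which encodes iron regulatory protein 1, was higher at CT8, at 0.57. Also higher at CT8 were the iron chaperones Pcbp1, at 0.89 ± 0.19 (edgeR adjusted p = 0.00118), and Pcbp2, at 0.58, and Ncoa4, the receptor that delivers ferritin for breakdown, at 0.81. Scaling by library size alone lost the calls of Aco1, Pcbp2 and Ncoa4 but not of Pcbp1, and that of Pcbp2 was also lost without CryDKO_CT8 library 10.

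In the list for iron transport, reduction and mitochondrial iron, 5 of 10 were higher and 1 lower at CT8, beside 18.7% and 20.3% of all genes. The one that fell was Slc25a37 (mitoferrin 1), an importer of iron into mitochondria, at 86.4, 98.4, 64.6 and 89.7 CPM in WT and 36.7, 36.2, 30.3 and 40.0 CPM in CryDKO. All CryDKO libraries were below all WT libraries, as for 20.5% of all genes. The difference was -1.24 ± 0.19 (edgeR adjusted p = 0.000131). At CT16 it was -0.74 ± 0.19 (adjusted p = 0.0132), with 48.3, 35.3, 44.5 and 59.5 CPM in WT and 32.9, 26.5, 35.5 and 17.7 in CryDKO, where 1 pair of libraries overlapped. Mitoferrin 1 is also known for its role in erythroid cells. At CT8 the erythroid marker Alas2 was lower in CryDKO, while Hbb-bs, with very few reads, had more of them there, as given above. The part of erythroid cells in this difference was not tested. Its paralog Slc25a28 (mitoferrin 2) was higher at CT16, at 0.32 ± 0.11, a call lost in 19 of 24 settings and, on leaving out single libraries, held only without WT_CT16 library 6. Higher at CT8 were the ferrireductases Steap4 (0.90), Steap2 (0.73) and Steap3 (0.58) and the importers Slc39a8 (0.50) and Slc11a2 (0.44). All 5 calls were lost with scaling by library size alone. Steap2 was lost in 12 of 24 settings, Steap3 and Steap4 in 6 each, Slc11a2 in 3 and Slc39a8 in 2, mostly on leaving out 1 library of either group at CT8. Between the times in WT, Slc39a8 was higher at CT16, at 0.63 ± 0.16, and Slc25a37 lower, at -0.86 ± 0.19, with edgeR adjusted p of 0.0441 and 0.0364. They were the only 2 of the 47 called, where 2.53% of all genes passed. Leaving out WT_CT8 library 1, 2 or 4 or WT_CT16 library 5, 6 or 7 lost both calls, and Slc39a8 was also lost without WT_CT8 library 3 or CryDKO_CT16 library 13 and with scaling by library size alone.

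In the list for heme and hemoglobin salvage and iron binding in plasma, 5 of 8 were higher and 0 lower at CT8, beside 18.7% and 20.3% of all genes. Hpx (hemopexin, which binds free heme) stood at 6852 ± 853 CPM in WT and 16336 ± 5354 in CryDKO, a difference of 1.25 ± 0.25 (edgeR adjusted p = 0.000797). Hp (haptoglobin, which binds free hemoglobin) differed by 1.15 ± 0.27 (adjusted p = 0.00285 in edgeR). Slc46a1, a heme and folate transporter, differed by 0.98 ± 0.19 at CT8 and 0.53 ± 0.18 at CT16. Hmox1, which degrades heme and is abundant in macrophages, differed by 1.46 ± 0.39 at CT8 and 1.23 ± 0.39 at CT16. Of the Kupffer cell markers, 2 of 10 were higher and 0 lower at CT8, near the 18.7% of all genes that were higher. At CT16, 5 of 10 were higher and 0 lower, beside 9% of all genes higher. The summed CPM of these markers, given above, overlapped between the genotypes at CT8. Their part in the Hmox1 difference was not tested. The calls at CT8 of all 5 genes of this list held in every setting. Those at CT16 of Slc46a1 and Hmox1 were lost in 17 and 15 of 24, including without any single WT_CT8 library. Lcn2, which binds bacterial iron carriers and rises in the acute phase, stood at 149, 195, 345 and 398 CPM in WT and 802, 512, 2065 and 1012 CPM in CryDKO at CT8. The difference was 2.01 ± 0.46 (edgeR adjusted p = 0.00385). At CT16 the order of the group means was the reverse, 738 ± 213 CPM in WT and 450 ± 214 in CryDKO, and did not pass. Its interaction of -2.73 ± 0.64 had the lowest p of the 47, followed by Hpx at -1.16 ± 0.35 and Slc39a8 at -0.63 ± 0.22, with edgeR adjusted p of 0.163, 0.217 and 0.267. For the interaction edgeR called 0 of the 47, beside 0.0414% of all genes, and DESeq2 2, beside 0.925%. Before adjustment 7 of the 47 were under 0.05, where 13.3% of all genes were. Without WT_CT16 library 8, 4 were called, and 3.86% of all genes. Between the times in CryDKO edgeR also called 0 of 47, and 0% of all genes. There 5 of the 47 had an unadjusted p under 0.05, where 6.48% of all genes had. DESeq2, with 0.0967% of all genes, and limma voom, with 0%, called 0.

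**Figure D4:**
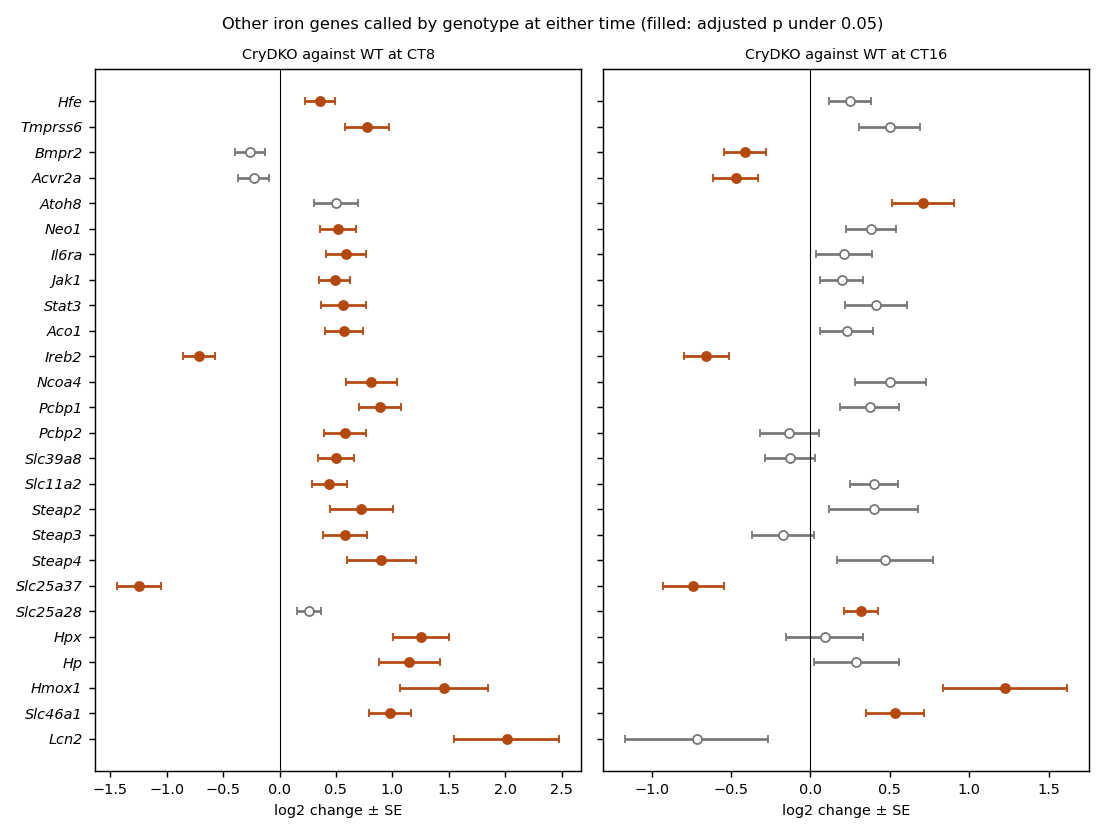
Log2 changes with approximate SE of the pathway genes called in at least 1 comparison; filled points passed adjusted p under 0.05. Ireb2 and Slc25a37 lie below 0 for CryDKO against WT at both CT8 and CT16, while most other filled points at CT8 lie above 0 with TMM scaling; scaling by library size alone gave 7 higher and 9 lower among the 47.

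Among themselves, members varied in different ways over the 16 libraries, given as a description. Tfr2 and Trf had a Pearson r of 0.85, Tfrc and Ftl1 of 0.79, and Tfr2 and Bmp6 of -0.80, while Hamp and Hamp2 had an r of 0.02. These values share libraries, groups and scaling. Log2 CPM of Tfr2, Cp, Hamp2, Fth1 and Ftl1 also had an r of -0.87, -0.72, -0.71, -0.69 and -0.61 with the log2 TMM factor, and Hamp of 0.05. Of 10261 genes whose log2 CPM averaged 1 or more, those most like Hamp over the 16 libraries were Pfdn2 (r = 0.83), Nsmce2 (0.82), Rpl36al (0.80), Nsrp1 (0.80) and Pfn1 (0.80). Those most like Tfrc were Igfbp5 (r = 0.76), Sds (0.76), Macir (0.76), Gls2 (0.75) and Atp5g1 (0.75). For Hamp2, looked up after its values had been seen, they were Plin5 (r = 0.93), Samm50 (0.92), Igfbp2 (0.91), Trim27 (0.91) and Bcl2l1 (0.91).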

How the data were processed

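Paired reads of 16 liver libraries were, per the submitters' processing notes, handled with FastQC, Trimmomatic 0.35, STAR 2.5.3, HTSeq 1.99.2, DESeq2 and the build GRCm39. The sources used here give neither annotation nor strand setting. The deposited table holds counts, whole reads per symbol without normalization, per its values. A deposited normalized table, the same counts rescaled, was not used. Groups came from column names. The series text speaks of both a single dose and 3 days of dosing. The labels do not say that replicates came from separate animals, so p-values measure the spread between these libraries.

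Counts were fitted in R 4.3.3 with edgeR 4.0.16 (filterByExpr by group, TMM scaling, robust quasi-likelihood test, 1 coefficient per group over all 16 libraries), in 5 comparisons, with Benjamini-Hochberg adjustment over 14484 genes and a threshold of 0.05. SE are |log2 change| over the root of F. CPM and log2 changes use library totals times TMM factors. Hepcidin sums were tested by exact permutation in R, and sequences were searched in Python 3.11.15. Alternatives were DESeq2 1.42.0, limma 3.58.1 voom, other scalings and filters, only the groups of a comparison, hepcidin genes summed, and each library left out. The fit was also run on simulated data with few altered genes, as many raised as lowered. Such data cannot check the scaling at CT8, where 39% of all genes passed between genotypes.

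Members and lists were chosen with earlier results of these data known. Named were all 10 members, up to 6 called pathway genes per comparison by lowest p, 3 for the interaction, and the 5 genes most like Hamp and Tfrc. Other pathway genes were named after their values had been seen. Sequences and positions are from RefSeq and GENCODE on GRCm38, not from the authors' build.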

Additional observations from a re-analysis of the deposited data

Results flagged for a closer look

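Within CryDKO at CT8, Hamp2 in library 10, at 654.6 CPM, stood apart from 56.4 to 104 CPM in the other 3 libraries, and so did the share of Hamp2 in the reads of both hepcidin genes, at 23.1% against 3.10% to 4.46%. The gap to the nearest library exceeded Dixon's critical value for 4 samples in both measures, which rest on the same reads. Of 44 groups of 4 values examined, these 2 passed, and chance passes about 1 in 20 groups. Hamp in that library, at 2180 CPM, lay within its group.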

How the results depend on the processing

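No call of a member or of a pathway gene named for a call changed sign in any alternative; among single genes 4037 results kept their side of the threshold, 150 calls were lost and 82 gained. Members called for the times in WT (0) became 3 with DESeq2, 1 with voom, 2 without a low count filter and 1 with only the groups of the comparison; pathway genes (2) became 8 with DESeq2, 1 with library size alone, 6 without a filter and 6 with only those groups. Members called by genotype at CT8 (4) became 2 with library size alone and 5 with DESeq2, and pathway genes (22) ranged from 16 with library size alone to 26 with DESeq2. At CT16 (1) they became 2 with DESeq2, voom or library size alone, and 0 without a filter or with only those groups; pathway genes (8) became 11 with DESeq2, 5 with library size alone, 4 without a filter and 4 with only those groups. Pathway genes called for the interaction (0) became 2 with DESeq2, and the 20 higher and 2 lower by genotype at CT8 became 7 and 9 with library size alone. The cause was not tested. Leaving out 1 library gave 0 to 4 members and 0 to 14 pathway genes for the times in WT, the highest without WT_CT16 library 8. It gave 2 to 5 and 17 to 26 by genotype at CT8 (2 members without CryDKO_CT8 library 10), 0 to 2 and 4 to 8 at CT16, 0 to 0 and 0 to 4 for the interaction, and 0 to 0 for the times in CryDKO. Scaling by library size alone moved the median of all genes to -0.36 at CT8, -0.16 at CT16, -0.29 for the times in WT and 0.20 for the interaction, and split the calls into 961 higher and 5127 lower at CT8, 605 and 1883 at CT16, and 18 and 354 in WT. Over all genes, 367 calls for the times in WT became 1526 with DESeq2, 1006 with voom, 663 without a filter, 712 with only those groups and 3580 without WT_CT16 library 8. Without WT_CT8 library 1, 2, 3 or 4 they became 80, 5, 92 and 0, without WT_CT16 library 5, 6 or 7 they became 0, 1 and 12, and without CryDKO_CT8 library 9 or CryDKO_CT16 library 13 or 14 they became 633, 174 and 697. No paired analysis was possible because column names number the libraries through the series and give no replicate numbers. Counts of Bmp6, at most 74 reads, limit its precision.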
